A study of Homo sapiens with 18 samples.

Results

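The 46 genes described here encode the subunits, regulators and assembly factors of the proteasome, the protease complex that degrades ubiquitin-tagged proteins. The rule that picks them goes by name and uses no measured value: of the 15258 genes in the deposited expression table, every protein-coding gene was taken whose symbol is PSMA, PSMB, PSMC, PSMD, PSME, PSMF or PSMG followed by a digit, without PSMB8 and PSMB9. By their known roles, 7 belong to the alpha ring and 8 to the beta ring of the core particle. Another 6 are ATPases and 11 are other subunits of the regulatory particle, 3 are assembly chaperones of that particle, 4 are assembly chaperones of the core, and 5 are alternative activators or an inhibitor. The remaining 2, PSMC3IP and PSME3IP1, fit the naming pattern but are named for a binding partner and are not proteasome subunits. PSMA8 and PSMB11, the testis and thymus subunits, were not among the genes of that table and were not analysed here.

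All RNA came from MEL624, a human melanoma cell line, grown as 3 lines: KO1 and KO2, which are separate clones carrying a knockout of PCIF1, and a control line that is wild type and received a random sgRNA. PCIF1 is the methyltransferase that places the m6A mark on an adenosine that is already 2'-O-methylated and directly follows the mRNA cap, giving m6Am. The study compared mRNA from these lines by input RNA sequencing and by m6A immunoprecipitation. The 9 input libraries, 3 per line, were used, and the 9 m6A libraries were not analysed here. Each knockout line is 1 clone and there is 1 control line, so a p-value here weighs a difference against replicate libraries of 1 line and carries no information on other edited lines.

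The core particle is a barrel of stacked rings whose outer alpha rings gate the entry and whose inner beta rings hold the protease sites, contributed by PSMB5 (chymotrypsin-like), PSMB6 (caspase-like) and PSMB7 (trypsin-like). The regulatory particle binds ubiquitinated proteins, removes the ubiquitin, unfolds them with its ring of ATPases and feeds them into the core. Because the complex needs its subunits in fixed proportions, their genes are often regulated together, in part by the transcription factor NRF1 (gene NFE2L1), which raises proteasome gene transcription when proteasome activity is low. Cells exposed to interferon exchange the 3 protease subunits for PSMB8, PSMB9 and PSMB10, and this form, the immunoproteasome, makes peptides for antigen presentation.

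The libraries held between 7848089 and 11393206 reads on the listed genes. PCIF1 itself had 24.7, 22 and 25.3 TPM in KO1, 58, 64.7 and 58.1 TPM in KO2 and 55.2, 62 and 55.6 TPM in control, so its RNA was lower in KO1 (log2 fold change −1.26, SE 0.0735, limma adjusted p = 1.65e-06) and was not called in KO2 (log2 fold change 0.07, SE 0.0735, limma adjusted p = 0.542), and the level of a transcript does not show whether it encodes a working protein. Of the 8 melanocyte lineage markers listed for a check of the cells, only MITF was analysed here, at 26.3 ± 2.49, 50.02 ± 2.26 and 37.1 ± 1.14 TPM in KO1, KO2 and control (mean ± SD, n = 3 each). The other 7 and the 6 markers listed for epithelial, leukocyte and endothelial cells were not among the genes of the deposited expression table and were not analysed here. Of 2 fibroblast markers, COL1A1 stayed below 1 TPM in all 9 libraries and LUM averaged 2.39 ± 0.43, 1.15 ± 0.33 and 0.0665 ± 0.0593 TPM in the same order, so both MITF and LUM moved with the lines, and their part in the results below was not tested. Values are TPM (transcript counts scaled by gene length and library), which sum to 1000000 in each library, so they are shares and not absolute amounts.

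All 46 genes were expressed in every library and passed the filter of a mean of at least 1 TPM. Their means over the 9 libraries ran from 6.72 TPM for PSMG4 to 674 TPM for PSMA7, with a median of 92.8 TPM, against a median of 19.3 TPM over the 14512 genes tested. PSMA7, an alpha ring subunit, had 668, 669 and 647 TPM in KO1, 632, 659 and 664 TPM in KO2 and 678, 724 and 723 TPM in control. It was the most abundant of the 46 in each of the 9 libraries. PSMG4, a chaperone of core assembly, was at the other end with 6.45, 6.82 and 6.5 TPM in KO1, 7.19, 7.72 and 7.23 TPM in KO2 and 6.27, 6.13 and 6.12 TPM in control. Subunits that occupy equal numbers of places in the complex differed widely in RNA. Within the ATPase ring, PSMC3 had 426, 417 and 414 TPM in KO1, 388, 378 and 391.6 TPM in KO2 and 396, 416 and 434 TPM in control. PSMC1, its partner in the same ring, had 9.94, 10.6 and 12.6 TPM in KO1, 10.4, 9.74 and 13.1 TPM in KO2 and 10.1, 9.55 and 10.7 TPM in control. The annotation lists 44 pseudogenes named after 17 of the 46 genes, 13 of them after PSMC1, and only 1 of them, PSMC2P1, was in the table. How reads of near-identical copies were assigned is not stated, so the levels of these genes are uncertain.

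**Figure D1:**
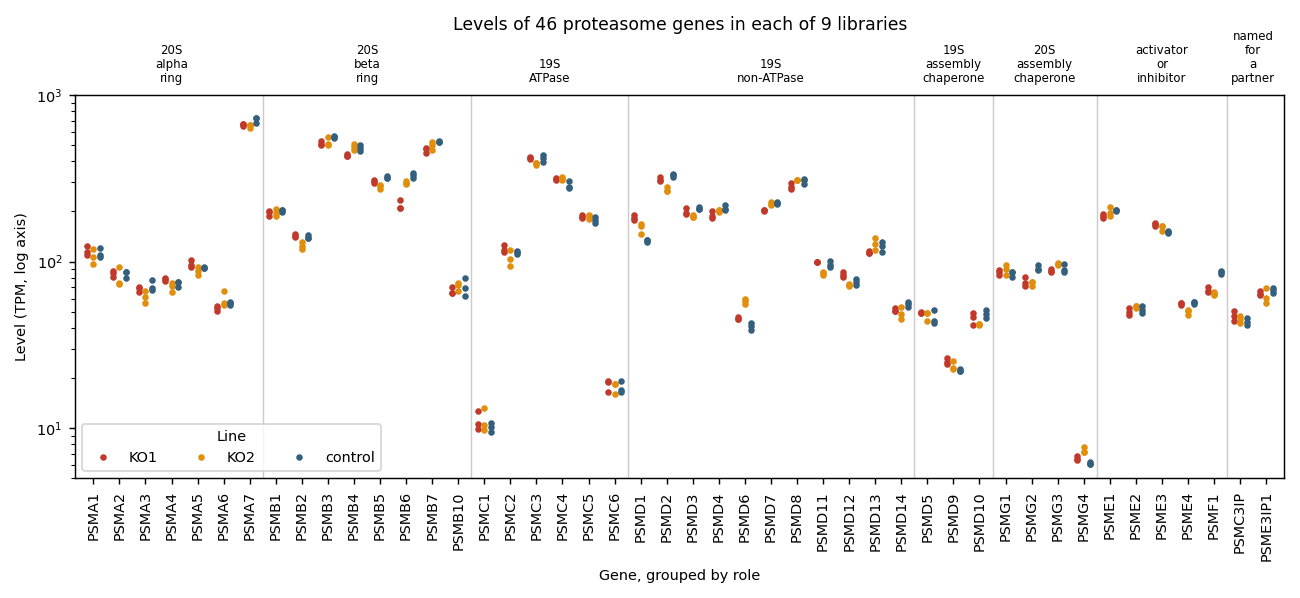
Level of each of the 46 proteasome genes (TPM, log axis) in each of the 9 libraries, grouped by role, with 1 point per library and KO1, KO2 and control side by side. The spread between genes, from 6.72 TPM for PSMG4 to 674 TPM for PSMA7 on average, is much wider than the spread between lines for any 1 gene.

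Most of the 46 genes differed little between the knockout clones and control. In KO1 against control, 14 were called at a limma adjusted p below 0.05, 6 higher and 8 lower, which is 30.4% of the 46 beside 34.3% of all tested genes. In KO2 against control, 15 were called, 3 higher and 12 lower, 32.6% beside 30.4% of all tested genes. In KO2 against KO1, 13 were called, 5 higher and 8 lower in KO2, 28.3% beside 28.7%. By direction the background was 20.2% higher and 14.1% lower in KO1, 15.6% higher and 14.8% lower in KO2, and 11.8% higher and 16.9% lower in KO2 against KO1. The shares called in either direction were thus near those of all genes in each comparison. Split by direction, the shares against control were less near. In KO2, 12 of the 46 were lower and 3 higher, beside 14.8% and 15.6% of all tested genes. In KO1, 8 were lower and 6 higher, beside 14.1% and 20.2%. This lean to lower values was not tested. The libraries of both lines did not overlap for 21 of the 46 genes in KO1 against control, 19 in KO2 against control and 21 in KO2 against KO1, beside 49.9%, 43.7% and 43% of all tested genes. In 25 of the 46 at least 1 comparison gave a call, beside 52.3% of all tested genes, and in 21 none did.

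The sizes were small. The median log2 fold change of the 46 was −0.04 in KO1 and −0.05 in KO2 against control, beside 0.04 and 0.01 over all tested genes. The median absolute log2 fold change was 0.0964 in KO1 and 0.0895 in KO2, beside 0.186 and 0.172 over all tested genes. Highly expressed genes vary less, and among the 2376 tested genes with means between 58.1 and 200.3 TPM, the quartiles of the 46, these medians were 0.130 and 0.122, with 41.5% and 38.0% called. Replicates of a line also lay closer together for the proteasome genes, with a median log2 SD of 0.0521, beside 0.0618 in that band and 0.0994 over all tested genes. An absolute log2 fold change above 0.25 was reached by 4 of the 46 in KO1 (8.70%) and 5 in KO2 (10.9%), beside 22.6% and 22.4% of the genes in that band and 39.1% and 37.4% of all tested genes.

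The number called depended on single libraries. In KO1 against control it was 6 without control B, 8 without KO1 A, 8 without KO1 C, and 9 without KO1 B or without control C. In KO2 against control it was 9 without KO2 A, in KO2 against KO1 it was 8 without KO1 B, and the number called in both clones was 3 without KO2 A. The numbers higher and lower in KO1 also moved with the scaling. They were 6 and 8 as deposited, 2 and 13 after centring each library on its median, 2 and 9 after quantile normalization and 1 and 16 with limma-voom on recovered reads. In KO2 against control they were 3 and 12 as deposited and 4 and 9 after median centring. They were 3 and 14 both after quantile normalization and with limma-voom. In KO2 against KO1 they were 5 and 8 as deposited, 9 and 4 after median centring, 4 and 9 after quantile normalization and 9 and 6 with limma-voom. Over all 14512 tested genes, calls in KO1 against control numbered 4975 as deposited, 4929 after median centring, 4908 after quantile normalization and 5604 with limma-voom. In KO2 against control they numbered 4414, 4448, 4398 and 5059 in the same order, and in KO2 against KO1 4165, 3964, 4008 and 4660. Their split by direction after rescaling, and the counts with a library left out, are not given here. No gene of the 46 that was called changed sign under these scalings.

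**Figure D2:**
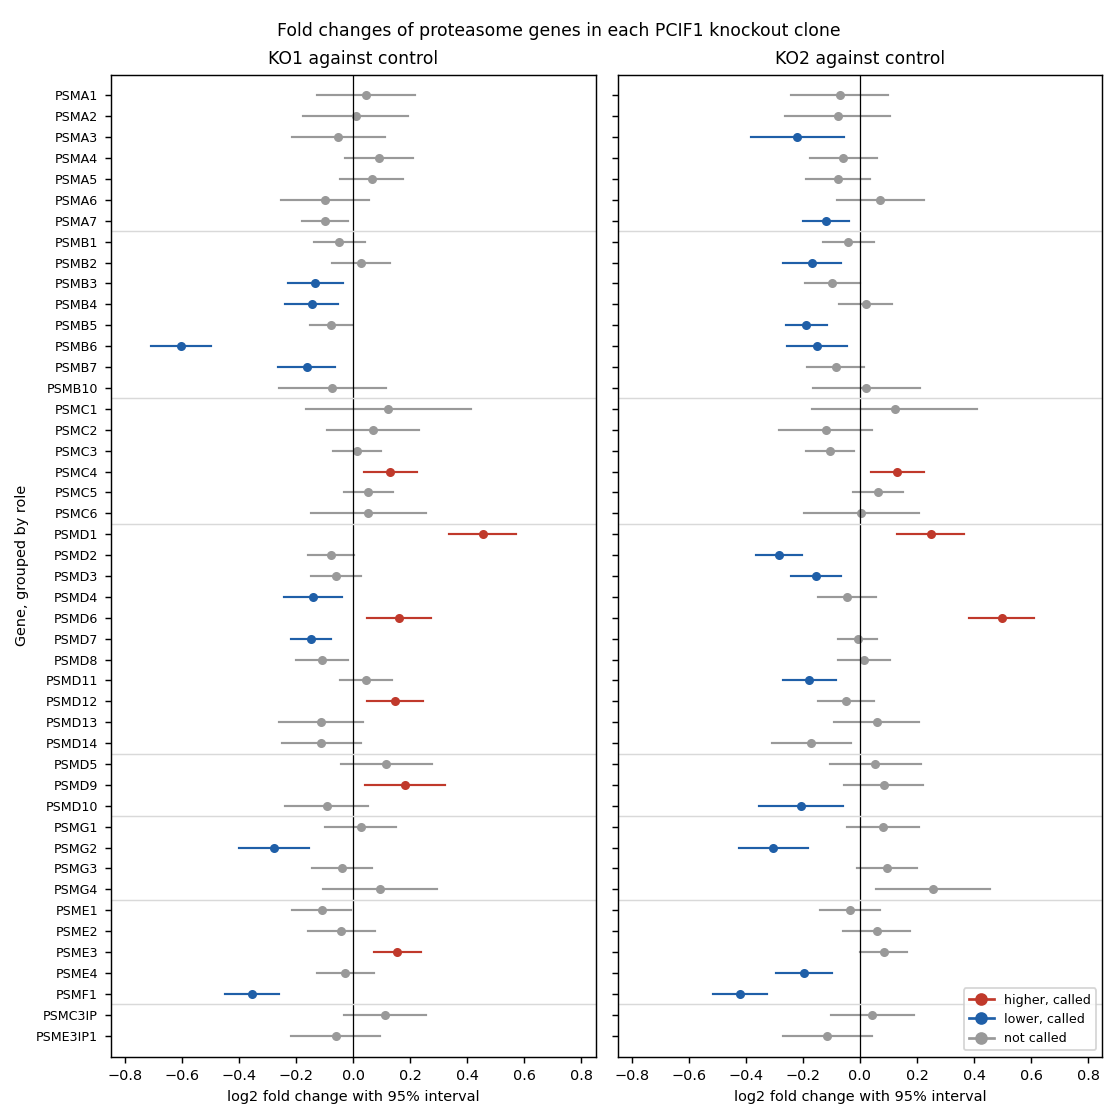
Log2 fold change of each of the 46 proteasome genes with its 95% interval, for KO1 against control on the left and KO2 against control on the right, with genes called at a limma adjusted p below 0.05 in colour. Most intervals lie close to 0, PSMB6 at −0.60 in KO1 is the furthest from it, and both panels use the same control libraries.

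The same direction was called in both clones for 6 of the 46 genes, 13.0% beside 15.7% of all tested genes. PSMB6, PSMF1 and PSMG2 were lower in both, and PSMC4, PSMD1 and PSMD6 were higher in both. The background was 7.26% of tested genes lower in both and 8.47% higher in both. The clones were each compared with the same 3 control libraries, so a deviation of those libraries enters both comparisons. These 6 genes lie in different parts of the complex: a protease subunit, an inhibitor, a core assembly chaperone, an ATPase and 2 other subunits of the regulatory particle.

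**Figure D3:**
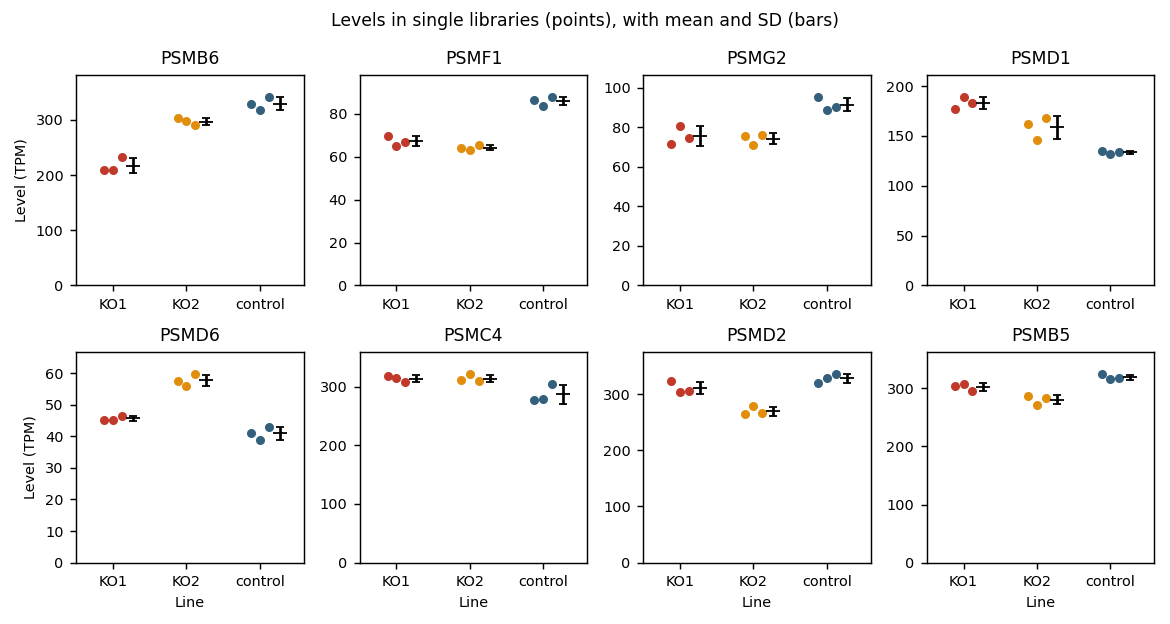
Level (TPM) in each library (points) with the mean and SD of the 3 libraries of a line (bars), for the 6 genes called in the same direction in both clones and for PSMD2 and PSMB5, which were called in KO2. PSMB6 in KO1 stands apart from KO2 and control, and PSMF1 and PSMG2 are lower in both clones.

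PCIF1 acts on transcripts whose first base is adenosine, so the annotated first bases are shown for the genes called in both clones. RefSeq promoter windows (GRCh38.p14) were found for 40 of the 46 genes. PSMA7, PSMB1, PSMB6, PSMB7, PSMD4 and PSMG3 are named only. Each line gives 70 bases before the annotated start and 30 from it on, 5′ to 3′ on the strand of the gene, with the first transcribed base as the single capital.
PSMC4, chr19:39971095-39971194, plus strand: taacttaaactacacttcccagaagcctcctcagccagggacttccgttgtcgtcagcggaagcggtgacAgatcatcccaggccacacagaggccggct
PSMD1, chr2:231056797-231056896, plus strand: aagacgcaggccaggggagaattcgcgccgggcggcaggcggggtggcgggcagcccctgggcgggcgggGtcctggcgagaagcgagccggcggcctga
PSMD6, chr3:64023465-64023564, minus strand: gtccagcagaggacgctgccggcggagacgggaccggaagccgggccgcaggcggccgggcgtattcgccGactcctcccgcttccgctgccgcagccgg
PSMF1, chr20:1113193-1113292, plus strand: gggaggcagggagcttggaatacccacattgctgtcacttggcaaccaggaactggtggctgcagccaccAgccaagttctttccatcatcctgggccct
PSMF1, chr20:1118532-1118631, plus strand: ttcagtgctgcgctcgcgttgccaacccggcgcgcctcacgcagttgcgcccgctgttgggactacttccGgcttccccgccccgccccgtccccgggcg
PSMG2, chr18:12658668-12658767, plus strand: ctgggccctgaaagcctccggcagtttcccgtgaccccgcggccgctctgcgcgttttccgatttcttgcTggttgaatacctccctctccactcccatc
PSMG2, chr18:12702972-12703071, plus strand: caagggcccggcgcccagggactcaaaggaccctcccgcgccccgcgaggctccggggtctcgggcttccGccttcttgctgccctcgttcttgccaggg
PSMC4 and the upstream start of PSMF1 begin with A. PSMD1, PSMD6 and the other starts of PSMF1 and PSMG2 begin with G or T. Among the genes higher in both clones, A is annotated for PSMC4 only. Among those lower in both, the only annotated A is at the upstream start of PSMF1, and PSMB6 has no window. A link between the first base and these changes was not tested.

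Over the 50 annotated starts of the 40 genes, 23 (46%) began with A, beside 44.4% of all 35116 RefSeq starts. In KO1 against control, the 16 genes with A at every start had a median log2 fold change of −0.04 and 3 calls (2 higher, 1 lower). The 18 with A at no start had a median of 0.04 and 7 calls (4 higher, 3 lower). In KO2, the medians were −0.11 with 6 calls (1 higher, 5 lower) and 0.06 with 4 calls (2 higher, 2 lower). Of all 46 genes, 12 of the 15 calls in KO2 were lower. The medians over all tested genes with A at every start were 0.04 in KO1 and 0.01 in KO2, beside 0.03 and 0.01 for those with A at no start. The shares of those genes called were 35.6% with A at every start and 35% with A at no start in KO1, and 32.2% and 29.8% in KO2. The starts are those of the annotation and were not measured in these cells, and the difference between the sets was not tested.

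In the alpha ring, none of the 7 genes was called in KO1 and 2 were lower in KO2, beside 34.3% of all tested genes called in KO1 and 14.8% lower in KO2. The KO2 median log2 fold change was −0.08. Log2 fold changes lay between −0.10 and 0.09 in KO1 and between −0.22 and 0.07 in KO2. PSMA3 had 66, 70.8 and 69.6 TPM in KO1, 61.2, 56 and 67 TPM in KO2 and 77.7, 67.5 and 69.1 TPM in control (log2 fold change −0.22, SE 0.0732, limma adjusted p = 0.0461 in KO2). All 3 KO2 libraries were below the lowest control library. PSMA7 was lower in KO2 (log2 fold change −0.12, SE 0.0361, limma adjusted p = 0.0302), where its 3 libraries were also below those of control. It was called lower in KO1 too with limma-voom and without control A. The same held with the neighbour median subtracted (log2 fold change −0.16, limma adjusted p = 0.0183, in KO1). PSMA6 was the least abundant of the ring with 50.4, 54.2 and 52.9 TPM in KO1, 56.5, 54.8 and 66.4 TPM in KO2 and 56.4, 55.2 and 56.8 TPM in control, and was called in no comparison. A second annotated gene on the same strand shares 38842 bases with PSMA6. It averaged 105, 118 and 115 TPM in KO1, KO2 and control, so the rank of PSMA6 is uncertain. The call for PSMA3 ended without KO1 A/B/C, KO2 A/B or control A/C (limma adjusted p 0.0532 to 0.153), and that for PSMA7 without KO2 A or control B/C (limma adjusted p 0.101 to 0.112). In RNA from whole cultures, fewer cells expressing a gene and less RNA per cell cannot be told apart.

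In the beta ring all calls against control were lower: 4 of its 8 genes were lower in KO1, 3 were lower in KO2 and none was higher in either. Of all tested genes, 14.1% were lower in KO1 and 14.8% in KO2. The summed level of the ring without PSMB10 was 2271 ± 32.2 TPM in KO1, 2404 ± 88.4 TPM in KO2 and 2555 ± 20.2 TPM in control (mean ± SD, n = 3 each). The alpha ring summed to 1158 ± 16.1, 1118 ± 49.2 and 1198 ± 11.3 TPM in the same order, and the ATPases to 1066 ± 13.5, 1019 ± 11.5 and 1021 ± 41.8 TPM. These sums are descriptions and were not tested.

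PSMB6, the caspase-like protease subunit at chr17:4796144-4798502 (hg38), had the largest change of the 46 genes. It had 209, 209 and 233 TPM in KO1, 303, 297 and 291 TPM in KO2 and 329, 318 and 341 TPM in control. No KO1 library reached the lowest KO2 or control library, and the KO2 libraries were just below those of control. In KO1 the level was 65.8% of control (log2 fold change −0.60, SE 0.0471, limma adjusted p = 1.22e-05, 95% interval −0.71 to −0.50), a call that held under all 20 alternative settings. In KO2 the difference was smaller (log2 fold change −0.15, SE 0.0471, limma adjusted p = 0.036) and its call ended without KO2 A/B/C or control A/C (limma adjusted p 0.0578 to 0.121). The difference between the clones was itself called (log2 fold change 0.45, SE 0.0471, limma adjusted p = 0.000105) under all 20 settings. The median of neighbouring genes in a window of 51 tested genes along the chromosome was 0.09 in KO1 and 0.06 in KO2, so the neighbours were not lower.

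The proportions of the 3 constitutive protease subunits shifted with PSMB6. Its share of the summed TPM of PSMB5, PSMB6 and PSMB7 was 21.7, 21.1 and 23.1% in KO1, 27.8, 28.8 and 26.5% in KO2 and 28, 27.3 and 28.9% in control. Only the KO1 libraries were apart. The ratio of PSMB6 to PSMB5 was 0.685, 0.679 and 0.789 in KO1, 1.06, 1.09 and 1.03 in KO2 and 1.02, 1 and 1.08 in control, so near parity held outside KO1. These shares use the PSMB6 values already tested and add no test of their own.

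**Figure D4:**
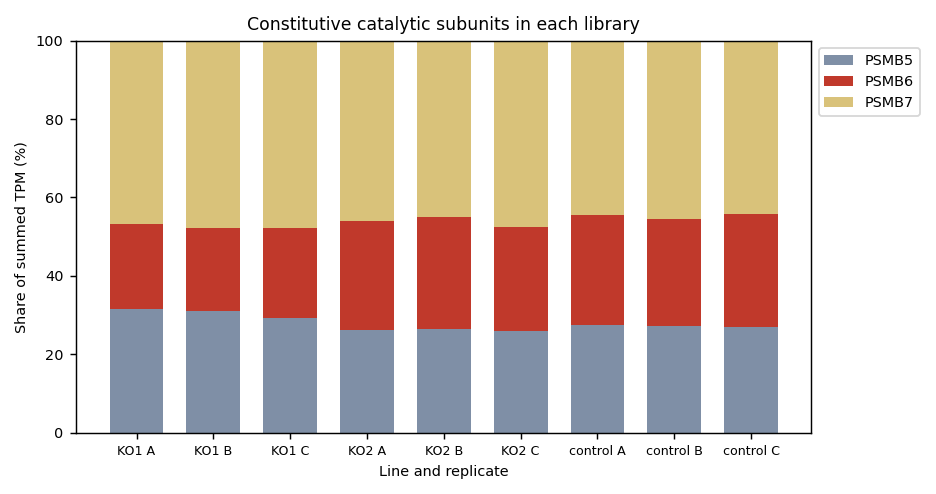
Share of PSMB5, PSMB6 and PSMB7 in the summed TPM of these 3 protease subunits, with 1 bar per library. The PSMB6 share lies between 21.1% and 23.1% in KO1 and between 26.5% and 28.9% in the other 6 libraries.

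Among the other beta ring genes, PSMB5, the chymotrypsin-like subunit and the site that proteasome inhibitor drugs bind best, had 305, 308 and 295 TPM in KO1, 287, 272 and 283 TPM in KO2 and 324, 317 and 317 TPM in control. The KO2 libraries were the lowest and the call in KO2 held under all 20 settings (log2 fold change −0.19, SE 0.0329, limma adjusted p = 0.00186), while KO1 was not called (log2 fold change −0.08, limma adjusted p = 0.0945). After median centring or with limma-voom, PSMB5 was called lower in KO1 too. PSMB2, a subunit without protease activity, had 141, 141 and 147 TPM in KO1, 125, 118 and 132 TPM in KO2 and 145, 138 and 138 TPM in control, and all KO2 libraries lay below the other 6. It was lower in KO2 than in control (log2 fold change −0.17, SE 0.0453, limma adjusted p = 0.0179) and than in KO1 (log2 fold change −0.20, SE 0.0453, limma adjusted p = 0.00939). PSMB4, also without protease activity, had 429.5, 443 and 427 TPM in KO1, 487, 465 and 505 TPM in KO2 and 459, 478 and 501 TPM in control. It was lower in KO1 (log2 fold change −0.15, SE 0.0417, limma adjusted p = 0.0224), and higher in KO2 than in KO1 (log2 fold change 0.16, SE 0.0417, limma adjusted p = 0.0151). PSMB3, the most abundant of the ring, had 507, 527 and 501 TPM in KO1, 501, 511 and 562 TPM in KO2 and 566, 554 and 561 TPM in control and was lower in KO1 (log2 fold change −0.13, SE 0.0435, limma adjusted p = 0.0396).

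PSMB7, the trypsin-like subunit, averaged 469 ± 16.3 TPM in KO1, 495 ± 29.2 TPM in KO2 and 525 ± 5.22 TPM in control (mean ± SD, n = 3 each) and was lower in KO1 (log2 fold change −0.16, SE 0.0446, limma adjusted p = 0.0179). PSMB1 averaged 195 ± 6.23, 196 ± 8.55 and 202 ± 2.92 TPM in the same lines and was called in no comparison with the values as deposited. With the neighbour median subtracted, PSMB1 was called lower in KO1 (log2 fold change −0.13, limma adjusted p = 0.0171). PSMB10, the interferon-inducible form of PSMB7 and the least abundant of the 8, had 70.1, 64.9 and 64.5 TPM in KO1, 66.9, 74.2 and 72.1 TPM in KO2 and 61.8, 69.5 and 79.5 TPM in control, with overlapping lines. In KO1 the call for PSMB3 ended without KO1 A/C or control A/B/C (limma adjusted p 0.0782 to 0.125), that for PSMB4 without KO1 A/C or control B/C (limma adjusted p 0.0603 to 0.0836) and that for PSMB7 without KO1 A or control B (limma adjusted p 0.0608 to 0.0629). In KO2 the PSMB2 call ended without KO2 A/B or control A (limma adjusted p 0.0511 to 0.0633). Between the clones, the PSMB4 call ended without KO1 C (limma adjusted p = 0.0563) and that for PSMB5 (log2 difference −0.11, limma adjusted p = 0.0314) without KO1 A/B or KO2 B (limma adjusted p 0.0823 to 0.103). Both PSMB2 calls ended when the neighbour median was subtracted, at −0.13 (limma adjusted p = 0.12) in KO2 against control and −0.11 (limma adjusted p = 0.188) in KO2 against KO1.

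The other immunoproteasome subunits lay outside the naming rule. PSMB8, the inducible form of PSMB5, had 56.4, 57.4 and 58.6 TPM in KO1, 51, 52.8 and 49.1 TPM in KO2 and 64.8, 67.9 and 65.2 TPM in control. Its libraries separated the 3 lines, lowest in KO2 and highest in control, with log2 fold changes of −0.20 in KO1 (limma adjusted p = 0.00652) and −0.37 in KO2 (limma adjusted p = 0.000153), both called under all 20 settings. PSMB9, the inducible form of PSMB6, had 15.6, 17.7 and 15.9 TPM in KO1, 15.8, 19.5 and 14.1 TPM in KO2 and 16.1, 19.7 and 16.8 TPM in control and overlapped between lines. PSMB8, PSMB9 and PSMB10 together made up 12.9, 12.4 and 12.1% of the summed TPM of the 6 protease subunits in KO1, 10.9, 12.4 and 11% in KO2 and 10.8, 11.9 and 12% in control, so the constitutive forms predominated in every library. PSMB9 amounted to 7.49, 8.48 and 6.83% of PSMB6 in KO1, 5.19, 6.57 and 4.85% in KO2 and 4.88, 6.19 and 4.91% in control, a ratio whose denominator is the changed gene.

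In the ATPase ring, which unfolds substrates, 1 of 6 genes was higher in each clone against control and none was lower, beside 20.2% of all tested genes higher in KO1 and 15.6% in KO2. Log2 fold changes lay between 0.01 and 0.13 in KO1 and between −0.12 and 0.13 in KO2. The gene was PSMC4 at chr19:39971165-39981764, with 319, 315 and 307 TPM in KO1, 312, 321 and 309 TPM in KO2 and 277, 278 and 305 TPM in control. All 6 knockout libraries were above the control libraries, of which control C was the closest. The log2 fold change was 0.13 in KO1 (SE 0.0412, limma adjusted p = 0.0337) and 0.13 in KO2 (SE 0.0412, limma adjusted p = 0.0354). In KO1 this call ended without KO1 A/B/C or control A/B (limma adjusted p 0.0562 to 0.121), and in KO2 without KO1 B, KO2 A/B or control A/B (limma adjusted p 0.0519 to 0.126). PSMC3 was lower in KO2 than in KO1 (log2 fold change −0.12, SE 0.0374, limma adjusted p = 0.038), a call that ended without KO1 A/B/C, KO2 A/B/C or control B (limma adjusted p 0.0506 to 0.105). PSMC2, PSMC5, PSMC6 and PSMC1 were called in no comparison with the values as deposited. PSMC6 averaged 18.2 ± 1.48, 17.6 ± 1.26 and 17.6 ± 1.38 TPM in KO1, KO2 and control.

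The 11 other subunits of the regulatory particle, which bind, recognise and deubiquitinate substrates, moved in both directions. In KO1 3 were higher and 2 lower, and in KO2 2 were higher and 3 lower, 5 of 11 in each beside 34.3% and 30.4% of all tested genes. Between the clones, 7 of the 11 were called, 3 higher and 4 lower in KO2, beside 28.7% of all tested genes. PSMD1, a large scaffold subunit at chr2:231056845-231173116, had 177, 189 and 183 TPM in KO1, 162, 146 and 168 TPM in KO2 and 135, 132 and 134 TPM in control. The 3 lines did not overlap, with KO1 the highest. The log2 fold change was 0.45 in KO1 (SE 0.0522, limma adjusted p = 0.000154) and 0.25 in KO2 (SE 0.0522, limma adjusted p = 0.00526). The clones differed by −0.21 (limma adjusted p = 0.0152), a call that ended without KO1 B (limma adjusted p = 0.0563). Subtracting the neighbour median lowered the KO1 value to 0.23 (limma adjusted p = 0.0083) and ended the calls in KO2 at 0.11 (limma adjusted p = 0.167) and between the clones at −0.12 (limma adjusted p = 0.121).

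PSMD6, a subunit of the lid at chr3:64010550-64024010, was highest in KO2, with 45.2, 45.3 and 46.6 TPM in KO1, 57.6, 56 and 59.7 TPM in KO2 and 41.1, 38.7 and 43 TPM in control. No libraries of different lines overlapped. The difference was large in KO2 (log2 fold change 0.50, SE 0.0508, limma adjusted p = 5.98e-05) and called under all 20 settings, though subtracting the neighbour median lowered it to 0.16 (limma adjusted p = 0.0346). In KO1 it was small (log2 fold change 0.16, SE 0.0508, limma adjusted p = 0.0341) and its call ended without KO1 A/B/C, KO2 A or control A/B (limma adjusted p 0.0501 to 0.129). KO2 was also above KO1 (log2 fold change 0.34, SE 0.0508, limma adjusted p = 0.00103), a call that ended with that subtraction at 0.06 (limma adjusted p = 0.399).

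PSMD2, the large scaffold subunit beside PSMD1 and the most abundant of the 11, was lower in KO2, with 323, 305 and 307 TPM in KO1, 265, 279 and 266 TPM in KO2 and 321, 329 and 336 TPM in control. The KO2 libraries lay below all others, and both differences, against control (log2 fold change −0.28, SE 0.0366, limma adjusted p = 0.000281) and against KO1 (log2 fold change −0.21, SE 0.0366, limma adjusted p = 0.00249), were called under all 20 settings. KO1 against control was not called as deposited (log2 fold change −0.08, limma adjusted p = 0.13). It was called lower after median centring, after quantile normalization and with limma-voom. PSMD11, a lid subunit, had 98.7, 99.7 and 99.2 TPM in KO1, 86, 82.8 and 86.4 TPM in KO2 and 101, 94.9 and 92.8 TPM in control, also with KO2 below all others. Its KO2 values were lower than in control (log2 fold change −0.18, SE 0.0414, limma adjusted p = 0.00907) and than in KO1 (log2 fold change −0.22, SE 0.0414, limma adjusted p = 0.00324), again under all 20 settings. PSMD3, another lid subunit, averaged 199.7 ± 9.55, 187 ± 3.43 and 208 ± 3.1 TPM in KO1, KO2 and control. It was lower in KO2 (log2 fold change −0.15, limma adjusted p = 0.014). That call ended without control C (limma adjusted p = 0.0502) and when the neighbour median was subtracted (limma adjusted p = 0.181). With limma-voom, PSMD3 was called lower in KO1 too.

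PSMD7, the inactive partner of the deubiquitinase PSMD14, was lower in KO1, with 203, 200.1 and 204 TPM in KO1, 229, 219 and 221 TPM in KO2 and 222, 227 and 224 TPM in control. The KO1 libraries were the lowest 3, and the differences from control (log2 fold change −0.15, SE 0.0311, limma adjusted p = 0.00495) and of KO2 from KO1 (log2 fold change 0.14, SE 0.0311, limma adjusted p = 0.00795) were called under all 20 settings. PSMD12, a lid subunit, had 80.3, 86 and 82.6 TPM in KO1, 73, 71.7 and 72.6 TPM in KO2 and 78.1, 74.9 and 71.9 TPM in control. KO2 was lower than KO1 under all 20 settings (log2 fold change −0.20, SE 0.0441, limma adjusted p = 0.00855), and the call in KO1 against control (log2 fold change 0.15, limma adjusted p = 0.0268) ended without KO1 B/C or control B/C (limma adjusted p 0.0681 to 0.0957). PSMD8, a lid subunit, had 279, 271 and 297 TPM in KO1, 307, 307 and 309 TPM in KO2 and 293, 308 and 313 TPM in control; KO2 was higher than KO1 (log2 fold change 0.12, SE 0.0407, limma adjusted p = 0.0449), a call that ended without KO1 A/B, KO2 A/B/C or control B/C (limma adjusted p 0.0529 to 0.151). PSMD4, a ubiquitin receptor, averaged 190.3 ± 10.5, 203 ± 3.29 and 209.7 ± 8.46 TPM in KO1, KO2 and control; it was lower in KO1 (log2 fold change −0.14, limma adjusted p = 0.0381), a call that ended without KO1 B/C, KO2 A or control B/C (limma adjusted p 0.0514 to 0.14). PSMD13 and PSMD14 were called in no comparison with the values as deposited. They were at −0.11 and −0.11 in KO1 and 0.06 and −0.17 in KO2 on the log2 scale. With limma-voom, PSMD14 was called lower in both clones.

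Of the 3 chaperones that assemble the base of the regulatory particle, PSMD9 was higher in KO1 and PSMD10 lower in KO2. Of all tested genes, 20.2% were higher in KO1 and 14.8% lower in KO2. PSMD9 had 26.5, 24.4 and 25 TPM in KO1, 25.3, 23 and 22.6 TPM in KO2 and 22.2, 22.6 and 22.1 TPM in control, and its KO1 call (log2 fold change 0.18, limma adjusted p = 0.0474) ended without KO1 A/B/C, KO2 B or control A/B/C (limma adjusted p 0.0513 to 0.146). PSMD10, also known as gankyrin, had 41.6, 46.4 and 49.1 TPM in KO1, 42.2, 42.5 and 41.8 TPM in KO2 and 51.3, 48.7 and 46.1 TPM in control, and its KO2 call (log2 fold change −0.21, limma adjusted p = 0.0377) ended without KO1 B, KO2 A/B/C or control A/B (limma adjusted p 0.0526 to 0.125). PSMD5 was called in no comparison, at 0.12 (KO1) and 0.05 (KO2) on the log2 scale.

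Among the activators and the inhibitor, PSMF1 was the one called in both clones, beside 7.26% of all tested genes lower in both. PSMF1 (PI31), a protein that inhibits the isolated core in vitro and lies at chr20:1113240-1189415, had 69.9, 65.3 and 66.8 TPM in KO1, 64, 63.2 and 65.7 TPM in KO2 and 86.4, 83.9 and 87.9 TPM in control. All 6 knockout libraries were below all control libraries. The log2 fold change was −0.35 in KO1 (SE 0.042, limma adjusted p = 0.000186) and −0.42 in KO2 (SE 0.042, limma adjusted p = 5.15e-05), and the clones did not differ by a call (log2 difference −0.07, 95% interval −0.16 to 0.03). Its neighbours on the chromosome were also lower, as described below.

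PSME4 (PA200), the large single-chain activator found in the nucleus, had 54.5, 56.6 and 56.3 TPM in KO1, 51.2, 47.5 and 50.2 TPM in KO2 and 57.3, 57.5 and 55.9 TPM in control. KO2 was lower than control under all 20 settings (log2 fold change −0.20, SE 0.0442, limma adjusted p = 0.00745), and its difference from KO1 (log2 difference −0.17, limma adjusted p = 0.0172) ended without KO1 B/C (limma adjusted p 0.0572 to 0.0608). PSME3, a nuclear activator that does not need ubiquitin, averaged 167 ± 2.5 TPM in KO1, 159 ± 6.23 TPM in KO2 and 150.01 ± 2.22 TPM in control and was higher in KO1 (log2 fold change 0.15, SE 0.0371, limma adjusted p = 0.01). That call ended with limma-voom on recovered reads or with the neighbour median subtracted (limma adjusted p 0.0541 to 0.0705). PSME1 and PSME2, the interferon-inducible cap that works with the immunoproteasome, were called in no comparison with the values as deposited. PSME1 had 188, 194 and 183 TPM in KO1, 213, 188 and 195 TPM in KO2 and 205, 203 and 202 TPM in control. PSME2 had 47.8, 49.7 and 52.4 TPM in KO1, 54, 52.3 and 54.4 TPM in KO2 and 51.5, 48.9 and 54 TPM in control, and its lines overlapped.

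Of the 4 core assembly chaperones, PSMG2 was lower in both clones, beside 7.26% of all tested genes. The other 3 were called in neither with the values as deposited. PSMG2, which with PSMG1 builds the alpha ring and lies at chr18:12658043-12728945, had 71.3, 80.8 and 74.5 TPM in KO1, 75.5, 70.9 and 75.9 TPM in KO2 and 95.2, 88.9 and 90.2 TPM in control. All 6 knockout libraries were below all control libraries. The log2 fold change was −0.28 in KO1 (SE 0.0545, limma adjusted p = 0.00358) and −0.30 in KO2 (SE 0.0545, limma adjusted p = 0.00213). Its partner PSMG1, on another chromosome, averaged 86.2 ± 3.16, 89.6 ± 5.84 and 84.7 ± 3.72 TPM in KO1, KO2 and control, with log2 fold changes of 0.03 and 0.08. PSMG3, the most abundant of the 4, had 90.3, 86.3 and 87.8 TPM in KO1, 95.8, 97.7 and 96.5 TPM in KO2 and 86.2, 88.7 and 97.1 TPM in control. PSMG4 reached a log2 fold change of 0.26 in KO2 without a call (limma adjusted p = 0.0538), although its KO2 libraries lay above all others. With the neighbour median subtracted, PSMG4 was called in KO2 (log2 fold change 0.27, limma adjusted p = 0.0497). PSMG3 was then called lower in KO1 (log2 fold change −0.14, limma adjusted p = 0.0267).

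PSMG2 overlaps CEP76, which is encoded on the opposite strand, over 40945 bases of annotation. CEP76 was lower too, by a log2 fold change of −0.61 (limma adjusted p = 0.000176) in KO1 and −0.54 (limma adjusted p = 0.000318) in KO2. The overlap is of whole gene spans, introns included, and shared exons were not checked. The kit keeps strand, but the sources used here do not say whether the counting used it. How reads in the shared stretch were assigned is therefore not known. The same holds for 14 other genes of the 46 with an opposite-strand overlap: PSMA3, PSMC1, PSMC2, PSMC3IP, PSMC5, PSMD5, PSMD6, PSMD7, PSME1, PSME2, PSME3, PSME4, PSMG3 and PSMG4. Among these, PSME3 shares 8966 bases with BECN1, which was not called in KO1 (log2 fold change 0.04, limma adjusted p = 0.571). PSME1 shares only 9 bases with EMC9. PSMA1, PSMA2, PSMA6, PSMB10, PSMC2 and PSMD9 overlap a second annotated gene on the same strand, and the sources used here do not say how such reads were divided. In control the second gene averaged 227.5 TPM at PSMA1, 156.8 at PSMA2, 114.7 at PSMA6, 22.4 at PSMB10, 76.6 at PSMC2 and 64.5 at PSMD9. The levels and ranks of these genes, and the alpha ring sum, are uncertain for that reason. The genes named for a partner were called in no comparison: PSMC3IP, a meiotic recombination factor, averaged 47.1 ± 3.36, 44.9 ± 2.22 and 43.5 ± 2.06 TPM and PSME3IP1, a nuclear protein that binds PSME3, 64.4 ± 1.57, 62.3 ± 6.67 and 67.2 ± 2.54 TPM in KO1, KO2 and control.

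For 4 of the 6 genes called in both clones, the median of the neighbouring genes on the chromosome lay in the direction of the gene itself in both clones; PSMB6 and PSMC4 were the exceptions. For 3 of the 46 genes the median log2 difference of the neighbours was beyond 0.25 in either clone. Around PSMF1 it was −0.51 in KO1 and −0.57 in KO2, and around PSMG2 it was −0.44 and −0.48. Around PSMD6 it was 0.06 in KO1 and 0.34 in KO2. PSMD1 came next with 0.22 and 0.14, and for the other 42 genes it lay between −0.07 and 0.12 in KO1 and between −0.09 and 0.06 in KO2.

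After subtraction of the neighbour median from each library, PSMF1 turned to 0.16 (limma adjusted p = 0.0291) in KO1 and 0.15 (limma adjusted p = 0.0441) in KO2. PSMG2 turned to 0.16 (limma adjusted p = 0.0355) and 0.18 (limma adjusted p = 0.0301). Both were thus lower than in control by themselves and higher than in control relative to their neighbourhoods. PSMD1 was still called in KO1 only, and PSMD6 in KO2 only, with the values given above for each. PSMB6, whose neighbours moved little, had −0.70 (limma adjusted p = 1.34e-05) in KO1 and 0.49 (limma adjusted p = 0.000223) between the clones. PSMC4 had 0.12 (limma adjusted p = 0.0366) and 0.19 (limma adjusted p = 0.00375).

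**Figure D5:**
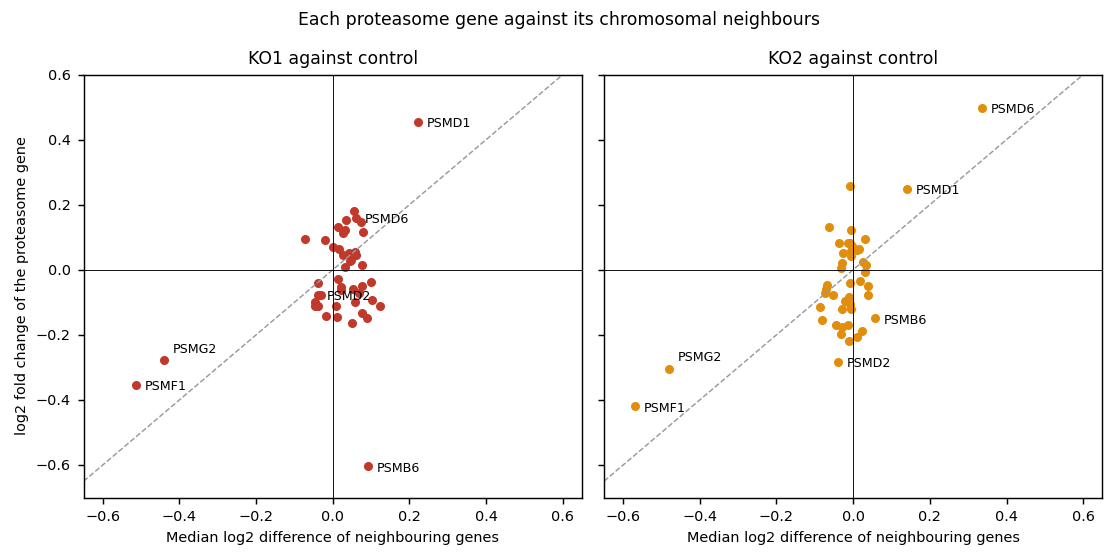
Log2 fold change of each of the 46 proteasome genes (vertical axis) against the median log2 difference of neighbouring tested genes on its chromosome (horizontal axis), for KO1 on the left and KO2 on the right, with a dashed line where both are equal. PSMF1 and PSMG2 lie far to the left together with their neighbours, at −0.51 and −0.44 in KO1, while PSMB6 lies far down in KO1 with its neighbours at 0.09.

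The antioxidant response element, which NRF1 binds with small MAF proteins at proteasome genes, was searched as TGACNNNGC on both strands of each 300-base window. It was found in 14 of the 50 windows, 28% beside 13.3% of all RefSeq windows, in 14 genes. CCAAT, the box bound by NF-Y, was found in 22 windows, 44% beside 34.6%. Matches that lie before the start are shown for the 6 such genes called in at least 1 comparison, 5′ to 3′ on the strand of the gene, with the matched 9 bases in capitals. In PSME4 and in the first of the pair in PSMD9 the match is to the reverse complement.
PSMB3, chr17:38752621-38752661, plus strand: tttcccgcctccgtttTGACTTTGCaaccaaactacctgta
PSMD3, chr17:39980754-39980794, plus strand: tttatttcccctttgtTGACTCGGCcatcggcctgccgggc
PSMD9, chr12:121888625-121888665, plus strand: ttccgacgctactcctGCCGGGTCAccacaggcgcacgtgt
PSMD9, chr12:121888672-121888712, plus strand: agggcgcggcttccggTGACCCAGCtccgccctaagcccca
PSMD12, chr17:67366718-67366758, minus strand: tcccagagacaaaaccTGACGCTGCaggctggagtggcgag
PSME4, chr2:53971003-53971043, minus strand: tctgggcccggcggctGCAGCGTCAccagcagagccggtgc
PSMG2, chr18:12658683-12658723, plus strand: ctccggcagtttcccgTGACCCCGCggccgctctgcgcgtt
The match begins 104 bases before the annotated start in PSMB3, 37 in PSMD3, 149 and 102 in PSMD9, 165 in PSMD12, 34 in PSME4 and 39 before the upstream start in PSMG2. Of the 14 genes with a match, PSMC4, PSMD1, PSMD9 and PSMD12 were higher and PSMB3 and PSMG2 lower in KO1, 6 of 14 beside 34.3% of all tested genes. In KO2, PSMC4 and PSMD1 were higher and PSMD3, PSME4 and PSMG2 lower, 5 of 14 beside 30.4%. PSMD1, PSMD12 and PSME4 were lower in KO2 than in KO1, 3 of 14 beside 28.7%, and the other 6 genes with a match were called in no comparison. A match is a description of the sequence and does not show binding.

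Other genes of the pathway were listed for their roles, and the counts called in each list are given beside 34.3% of all tested genes called in KO1 (20.2% higher, 14.1% lower) and 30.4% in KO2 (15.6% higher, 14.8% lower). Of 9 genes of the NRF1 route, 1 was higher and 2 lower in KO1, and 2 were lower in KO2. NFE2L1, which encodes NRF1, averaged 162 ± 6.77, 149 ± 2.27 and 173 ± 8.09 TPM in KO1, KO2 and control and was lower in KO2 (log2 fold change −0.21, SE 0.0444, limma adjusted p = 0.0052), with KO1 at −0.09 (limma adjusted p = 0.147). DDI2, the protease that activates NRF1, averaged 26.6 ± 0.255, 21.7 ± 1.21 and 20.6 ± 0.904 TPM and was higher in KO1 (log2 fold change 0.37, SE 0.0622, limma adjusted p = 0.00151). MAFF, one of the small MAF partners, was lower in both clones with 19, 17.7 and 17.4 TPM in KO1, 19, 19.7 and 19.4 TPM in KO2 and 27.6, 27.6 and 27.5 TPM in control. Its log2 fold change was −0.61 in KO1 (limma adjusted p = 4.27e-05) and −0.51 in KO2 (limma adjusted p = 0.000113), called under all 20 settings. NFE2L1 and DDI2 were named after their values were seen.

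Of 11 proteasome-bound or assembly factors outside the PSM names, 2 were lower in KO1 and 1 in KO2, and none was higher. USP14, a deubiquitinase of the regulatory particle at chr18:158383-214629, had 171, 181 and 174 TPM in KO1, 164, 151 and 162 TPM in KO2 and 228, 215 and 210.3 TPM in control. All knockout libraries were below all control libraries, with log2 fold changes of −0.31 in KO1 (limma adjusted p = 0.000645) and −0.45 in KO2 (limma adjusted p = 5.45e-05). Its neighbours on chromosome 18, where PSMG2 also lies, were at −0.47 and −0.54, and after their subtraction USP14 was at 0.16 (limma adjusted p = 0.022) and 0.085 (limma adjusted p = 0.194). PAAF1, a chaperone of the regulatory particle, was the other one lower in KO1 (log2 fold change −0.33, limma adjusted p = 0.0406), a call that ended without KO1 A/C or control A/B/C (limma adjusted p 0.0575 to 0.122). POMP, the core maturation factor, averaged 166 ± 13, 166 ± 16.3 and 167 ± 13.9 TPM in KO1, KO2 and control.

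Of 18 genes for ubiquitin, its activation and delivery to the proteasome, 1 was higher and 1 lower in KO1, and 2 were higher and 4 lower in KO2. UBQLN4, a shuttle that carries ubiquitinated proteins to the proteasome, had 61.4, 59.6 and 60.3 TPM in KO1, 59.3, 67.9 and 62 TPM in KO2 and 73.1, 74.1 and 69.4 TPM in control. Both clones were below control, with log2 fold changes of −0.26 in KO1 (limma adjusted p = 0.00523) and −0.20 in KO2 (limma adjusted p = 0.0204), and the KO2 call ended without KO2 A/C or control A/B (limma adjusted p 0.0535 to 0.076). The largest change of the list was in its paralog UBQLN2, named after its values were seen, which had 50.3, 49.4 and 49.3 TPM in KO1, 17.3, 18.9 and 17.8 TPM in KO2 and 46.2, 44.3 and 44.3 TPM in control. It was lower in KO2 than in control (log2 fold change −1.32, SE 0.0505, limma adjusted p = 1.12e-07) and than in KO1 (log2 fold change −1.46, SE 0.0505, limma adjusted p = 1.81e-07), and was not called in KO1 (log2 fold change 0.14, limma adjusted p = 0.0506).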

How the data were processed

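Per the labels' protocols, purified mRNA of MEL624 cells was sequenced from directional libraries. The authors deposited log2 TPM values on hg38, and the TPM of each library, back on the linear scale, add up to 1000000. The submitters' processing notes name edgeR 3.12.1, R 3.3.3, featureCounts, HISAT2 2.0.4, SAMtools 1.7 and deepTools 3.0.2, without their settings or annotation. Columns were matched to libraries by title.

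Symbols and coordinates came from GENCODE 44 (15138 of 15258 identifiers matched). Whole reads were recovered from the deposited values for 100% of genes (tolerance 1e-06 reads) and gave the depth. The fewest reads of a proteasome gene in a library were 132, for PSMC1. One limma-trend model (limma 3.58.1, R 4.3.3) was fitted to log2 TPM of the 14512 genes averaging at least 1 TPM over the 9 libraries, on 6 residual degrees of freedom; p-values were adjusted by Benjamini-Hochberg across those genes. The model was also run on simulated reads with known changes in KO1 alone, which checks the fitting steps and not the calls reported here. Limma-voom on the recovered reads, an alternative, called 5604 genes in KO1 against control, 5059 in KO2 against control and 4660 in KO2 against KO1.

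Genes given by library were those called in both clones or between the clones, and the largest change, highest and lowest of each role. The naming rule uses no measured value, but the choice of this gene family, and of the lists and tests, was made with earlier results of these data known. Other alternatives were pseudocounts of 1 and 5 TPM, no filter or a 5 TPM filter, median centring, quantile normalization, no variance trend, 2 lines only, a replicate block, subtraction of the neighbour median and leaving out each library.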

Additional observations from a re-analysis of the deposited data

Results flagged for a closer look

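For 13 of the 46 proteasome genes the 2 knockout clones differed from each other in the same limma-trend model, so their differences from control also differ. In 5 genes KO2 was higher than KO1: the log2 difference was 0.45 for PSMB6, 0.34 for PSMD6, 0.16 for PSMB4, 0.14 for PSMD7 and 0.12 for PSMD8. In 8 genes KO2 was lower than KO1: the log2 difference was −0.22 for PSMD11, −0.21 for PSMD2, −0.21 for PSMD1, −0.20 for PSMB2, −0.20 for PSMD12, −0.17 for PSME4, −0.12 for PSMC3 and −0.11 for PSMB5. The limma adjusted p ran from 0.000105 for PSMB6 to 0.0449 for PSMD8, and 28.7% of all tested genes were called in this comparison. The calls for PSMB6, PSMD2, PSMD7, PSMD11 and PSMD12 held under all 20 alternative settings. The other 8 ended under at least 1. Groups of 3 libraries are too small for a check of single outlying libraries.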

How the results depend on the processing

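Of the 42 calls of proteasome genes in the 3 comparisons, 13 held under all 20 alternative settings and 29 ended or changed sign under at least 1. In KO1 against control the count of 14 fell to 7 without the variance trend and to 9 with the replicate block, and ranged from 6 to 14 when 1 library was left out. In KO2 against control the count of 15 ranged from 9 to 18 when 1 library was left out. In KO2 against KO1 the count of 13 ranged from 8 to 16 in the same way. The count called in both clones, 6 in the main model, was 3 without the variance trend and 9 with limma-voom (1 higher, 8 lower). It ranged from 3 to 6 when 1 library was left out. Counts over all tested genes with the variance trend or a library left out, or with the replicate block, are not given here. Nor are those for both clones outside the main model. The genes called in both clones changed too: PSMB5 and PSMD2 entered after median centring, and PSMB7 and PSMD2 after quantile normalization. The lists below give calls that ended or changed sign and leave out calls that were gained. With the replicate block the counts were 12 in KO2 against control, 10 in KO2 against KO1 and 5 in both clones. Deviations of libraries sharing a letter correlated with r between −0.07 and 0.04, so no shared deviation by letter was seen. These values do not show whether libraries with the same letter were handled together. After median centring, calls ended for PSMC4, PSMD12, PSMD6 and PSMD9 in KO1, PSMA3, PSMA7 and PSMB6 in KO2 and PSMB5, PSMC3, PSMD1 and PSME4 in KO2 against KO1. After quantile normalization, calls ended for PSMB3, PSMC4, PSMD12, PSMD6 and PSMD9 in KO1, PSMC4 in KO2 and PSMD8 in KO2 against KO1. Without the variance trend, calls ended for PSMB3, PSMB4, PSMB7, PSMC4, PSMD12, PSMD4 and PSMD6 in KO1, PSMA3, PSMA7, PSMB2, PSMB6, PSMC4 and PSMD10 in KO2 and PSMB4, PSMB5, PSMC3 and PSMD8 in KO2 against KO1. With only the 2 lines compared, calls ended for PSMD4 in KO1, PSMA3, PSMA7 and PSMC4 in KO2 and PSMB5 and PSMD8 in KO2 against KO1. With the replicate block, calls ended for PSMB3, PSMC4, PSMD12, PSMD4 and PSMD9 in KO1, PSMA3, PSMC4 and PSMD10 in KO2 and PSMB5, PSMC3 and PSMD8 in KO2 against KO1. With limma-voom, calls ended for PSMC4, PSMD12, PSMD6, PSMD9 and PSME3 in KO1, PSMC4 in KO2 and PSMB5 and PSMC3 in KO2 against KO1. After subtraction of the neighbour median, calls ended or changed sign for PSMD12, PSMD4, PSMD6, PSMD9, PSME3, PSMF1 and PSMG2 in KO1, PSMA7, PSMB2, PSMD1, PSMD3, PSMF1 and PSMG2 in KO2 and PSMB2, PSMC3, PSMD1, PSMD6 and PSME4 in KO2 against KO1. Pseudocounts and filters on low values moved each count by at most 1. The median over all tested genes moved by less than 0.1 under every scaling. In KO1 against control it was 0.04 as deposited and −0.02 with limma-voom. In KO2 against KO1 it was −0.04 as deposited and 0.01 after median centring. Such shifts are not small beside the median absolute log2 fold change of the 46 genes, 0.0964 in KO1 and 0.0895 in KO2. Signs changed only when the neighbour median was subtracted: PSMF1 went to 0.16 (limma adjusted p = 0.0291) in KO1 and 0.15 (limma adjusted p = 0.0441) in KO2, PSMG2 to 0.16 (limma adjusted p = 0.0355) and 0.18 (limma adjusted p = 0.0301), and USP14 to 0.16 (limma adjusted p = 0.022) and 0.085 (limma adjusted p = 0.194); the cause was not tested. Depth limits the least expressed genes most: PSMC1 had as few as 132 reads in a library.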

Other observations

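Upstream of the proteasome, 2 abundant genes differed between the clones, named after their values were seen. UBA1, the main ubiquitin-activating enzyme, had 359.6, 333 and 347 TPM in KO1, 284, 289 and 267 TPM in KO2 and 284, 297 and 304 TPM in control. KO1 was above the other lines (log2 fold change 0.23, SE 0.0439, limma adjusted p = 0.00307, against control), and KO2 was lower than KO1 by a log2 difference of −0.31 (limma adjusted p = 0.000742). VCP, the ATPase that extracts ubiquitinated proteins for degradation, had 379, 355 and 377 TPM in KO1, 309.6, 309.9 and 296 TPM in KO2 and 336, 349 and 348 TPM in control. KO2 was lowest (log2 fold change −0.17, SE 0.0367, limma adjusted p = 0.00517, against control). The calls named here held under all 20 alternative settings.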
